A study of Homo sapiens with 18 samples.

Results

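The genes described here are 40 components of the DNA replication machinery, named one by one from textbook roles, and every probe that the platform's annotation assigns to them was taken. Of their 60 probes, 57 passed the filter on dim probes, and 39 of the 40 genes were tested among 12975 genes in all. The exception, GINS1, a subunit of the GINS complex of the replicative helicase, had a single probe that was above background on 1 of 18 arrays (mean log2 level 4.68), so it has no result. The genes were set apart by role: 12 of the helicase (MCM2 to MCM7, MCM10, CDC45 and GINS1 to GINS4), 5 of origin licensing, 9 polymerase and primase subunits, 6 of the sliding clamp and its loader, 2 that process nicks on the lagging strand, 4 of nucleotide supply, and UHRF1 and CLSPN, which act on newly made chromatin and at stalled forks.

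Before S phase, the origin recognition complex, CDC6 and CDT1 load the ring-shaped MCM complex onto DNA, and geminin (GMNN) blocks a repeat of that step later in the cycle. CDC45 and the GINS complex turn the loaded ring into the active helicase, primase and DNA polymerase alpha lay down primers, and polymerases delta and epsilon extend them while held to DNA by the PCNA clamp. Many of these genes are transcribed in a wave at the G1/S border under E2F transcription factors, and their mRNA is a common readout of how many cells of a culture are replicating DNA.

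RNA came from 2 human neuroblastoma lines. SK-N-SH and IMR-32 cells were each exposed for 24 h to withaferin A (WA) at 1 µM, to withanone (WN) at 1 µM, or to the solvent DMSO as the control. Both compounds come from Withania somnifera and belong to the withanolides, lactones built on a steroid skeleton. An epoxide and some hydroxyl groups are placed differently in WA and in WN. Each of the 6 groups had 3 biological replicates per the labels, each on its own Illumina HumanHT-12 v4 array. Levels are background-corrected, quantile-normalised log2 intensities of a gene's brightest probe, and a difference of 1 is a 2-fold change. A gene was called lower or higher where limma's test over all 18 arrays gave a Benjamini-Hochberg adjusted p under 0.05 across all genes tested. In bulk RNA such as this, fewer replicating cells and less of an mRNA per cell cannot be told apart.

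The 6 WN arrays were dimmer than the others, with a highest signal of 19100.5 to 21479.9, against 29825.6 to 37328.5 on the 12 WA and DMSO arrays. Quantile normalisation evens out this difference, and its part in the WN results was not tested. Of 8 tested adrenergic neuroblast markers, 7 were above background on all 3 DMSO arrays in each line. The 6 mesenchymal markers summed to 58.57 (log2) in SK-N-SH and 42.82 in IMR-32 under DMSO. None of 4 Schwann cell markers passed the filter, and 1 of 3 immune and 1 of 3 endothelial markers did. The spread of the replication genes between replicates was larger in SK-N-SH for 39 of 39 genes, with a median pooled SD of 0.385, against 0.143 in IMR-32. The fit uses 1 spread per gene for both lines, so thresholds were harder to reach in IMR-32 than that line's own spread would set. In SK-N-SH the reverse holds, and thresholds were easier to reach. For most genes the standard errors and intervals printed for SK-N-SH are narrower than that line's own spread would give.

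The promoters of these genes are shown first because the E2F factors that drive the G1/S wave read a short DNA motif. RefSeq promoter windows (GRCh38.p14), from 250 bases before to 50 after the annotated start, were matched by symbol for 36 of the 40 genes. The E2F motif was searched as TTTGGCGC, TTTCCCGC, TTTCGCGC or TTTGCCGC on both strands, where matches on opposite strands can overlap. Of the 36 genes, 20 (55.6%) held a match, against 3 of 28 mitosis genes (10.7%) and 855 of 15843 protein-coding genes (5.4%). The CCAAT box, read by NF-Y, was present in 23 of the 36 replication genes (63.9%), 22 of the 28 mitosis genes (78.6%) and 42.1% of protein-coding genes. The CHR element TTTGAA, a mark of genes that peak in G2 and M phase, was present in 1 of the 36 replication genes (2.78%, RRM1), 21 of the 28 mitosis genes (75.0%) and 15.8% of protein-coding genes. A match is a description of the letters in a window and not a site of binding.

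**Figure D1:**
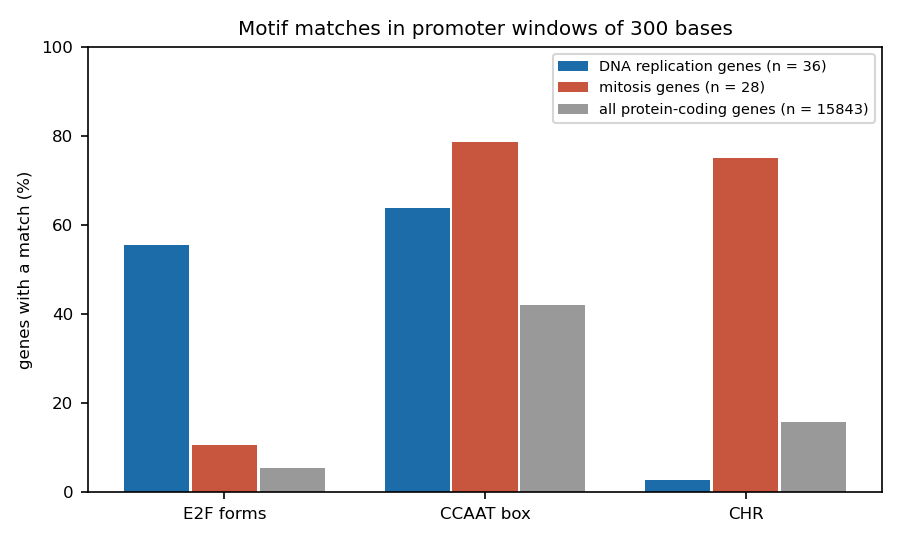
Share of genes (%) with at least 1 match to each motif in a promoter window from 250 bases before to 50 after the start, for replication genes, mitosis genes and all protein-coding genes (bars start at 0). E2F forms matched in 55.6% of replication genes and 10.7% of mitosis genes, and the CHR in 2.78% of replication genes and 75.0% of mitosis genes.

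The 6 stretches from 160 bases before to 20 bases after the start, the last 20 in the first exon, are from genes whose values are given below. They are a choice and do not mirror the share of members with a match, 20 of 36 genes. Capitals mark E2F matches.
MCM6: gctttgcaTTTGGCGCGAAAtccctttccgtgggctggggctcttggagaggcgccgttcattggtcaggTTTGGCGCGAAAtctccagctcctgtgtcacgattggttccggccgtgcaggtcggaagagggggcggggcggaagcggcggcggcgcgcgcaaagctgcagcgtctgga
POLA1: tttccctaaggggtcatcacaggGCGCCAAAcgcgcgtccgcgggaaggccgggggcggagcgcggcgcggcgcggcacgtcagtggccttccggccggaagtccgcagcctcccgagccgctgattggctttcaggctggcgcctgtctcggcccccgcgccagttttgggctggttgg
TYMS: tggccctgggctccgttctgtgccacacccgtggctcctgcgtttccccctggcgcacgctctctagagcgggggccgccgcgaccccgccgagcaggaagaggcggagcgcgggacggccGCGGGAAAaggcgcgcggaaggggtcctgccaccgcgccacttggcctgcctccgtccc
UHRF1: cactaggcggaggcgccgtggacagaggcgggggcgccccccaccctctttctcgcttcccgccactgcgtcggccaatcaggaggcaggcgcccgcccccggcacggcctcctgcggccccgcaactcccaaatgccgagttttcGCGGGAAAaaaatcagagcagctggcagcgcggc
CDC6: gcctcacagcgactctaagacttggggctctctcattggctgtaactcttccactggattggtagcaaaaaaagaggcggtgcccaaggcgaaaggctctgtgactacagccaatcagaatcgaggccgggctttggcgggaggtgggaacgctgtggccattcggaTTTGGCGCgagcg
RRM2: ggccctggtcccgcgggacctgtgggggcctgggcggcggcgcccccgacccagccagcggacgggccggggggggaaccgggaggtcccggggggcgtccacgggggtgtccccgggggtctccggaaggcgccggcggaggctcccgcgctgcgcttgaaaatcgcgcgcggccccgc
The MCM6 stretch (chr2:135876424-135876603, minus strand) held 4 overlapping matches at 2 places. POLA1 (chrX:24693758-24693937, plus strand), TYMS (chr18:657493-657672, plus strand), UHRF1 (chr19:4909341-4909520, plus strand) and CDC6 (chr17:40287719-40287898, plus strand) held 1 each. RRM2 (chr2:10122408-10122587, plus strand) held none of the letters searched.

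WA lowered most of these genes in SK-N-SH and a smaller number in IMR-32, and none was called higher in either line. In SK-N-SH, 35 of 39 were called lower and 0 higher, where 15.4% of all genes were called lower and 16.4% higher, and the median difference was -1.33 (2.52-fold). In IMR-32, 14 of 39 were called lower and 0 higher, where 6.47% of all genes were called lower and 8.04% higher, and the median was -0.56 (1.47-fold). The WA arrays lay below all DMSO arrays for 33 of 39 genes in SK-N-SH and 33 of 39 in IMR-32, where 16.4% and 19% of all genes did so. A fall of at least 2-fold was measured for 25 genes in SK-N-SH and 3 in IMR-32, and one of at least 4-fold for 2 and 0. Beside these falls, the summed level of the 8 adrenergic markers was 69.40 with WA and 80.63 under DMSO in SK-N-SH, and 82.84 with WA and 86.84 under DMSO in IMR-32. That of the 6 mesenchymal markers was 59.29 with WA and 58.57 under DMSO in SK-N-SH, and 46.41 with WA and 42.82 under DMSO in IMR-32, where 1 of the 6 was called higher and 0 had a negative difference. The largest of these IMR-32 differences was 2.02 (SNAI2). Of the 8 adrenergic markers, 5 were called lower and 0 higher in SK-N-SH, and 2 lower and 1 higher in IMR-32. In IMR-32 5 of the 8 had a negative difference, the lowest -2.80 (DBH). The part of these shifts in the result was not tested.

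The IMR-32 count depended on the fit and on single arrays. It was 27 with that line fitted on its own, where 9.92% of all genes were called lower, and 29 with array weights, where 14% were. With the replicate number as a block it was 21, where 8.96% of all genes were called lower. It was 8, 4 and 6 without DMSO replicate 1, 2 or 3, and 3 and 4 without WA replicate 1 or 2, while the median stayed between -0.61 and -0.53 under every alternative run. Over the 6 arrays left out in turn the count was 3 to 11. The share of all genes called without each array is not given, so these counts are not set against it. The SK-N-SH count was 32 to 36 under the alternatives, with 32 where that line was fitted on its own and 9.71% of all genes were called lower.

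**Figure D2:**
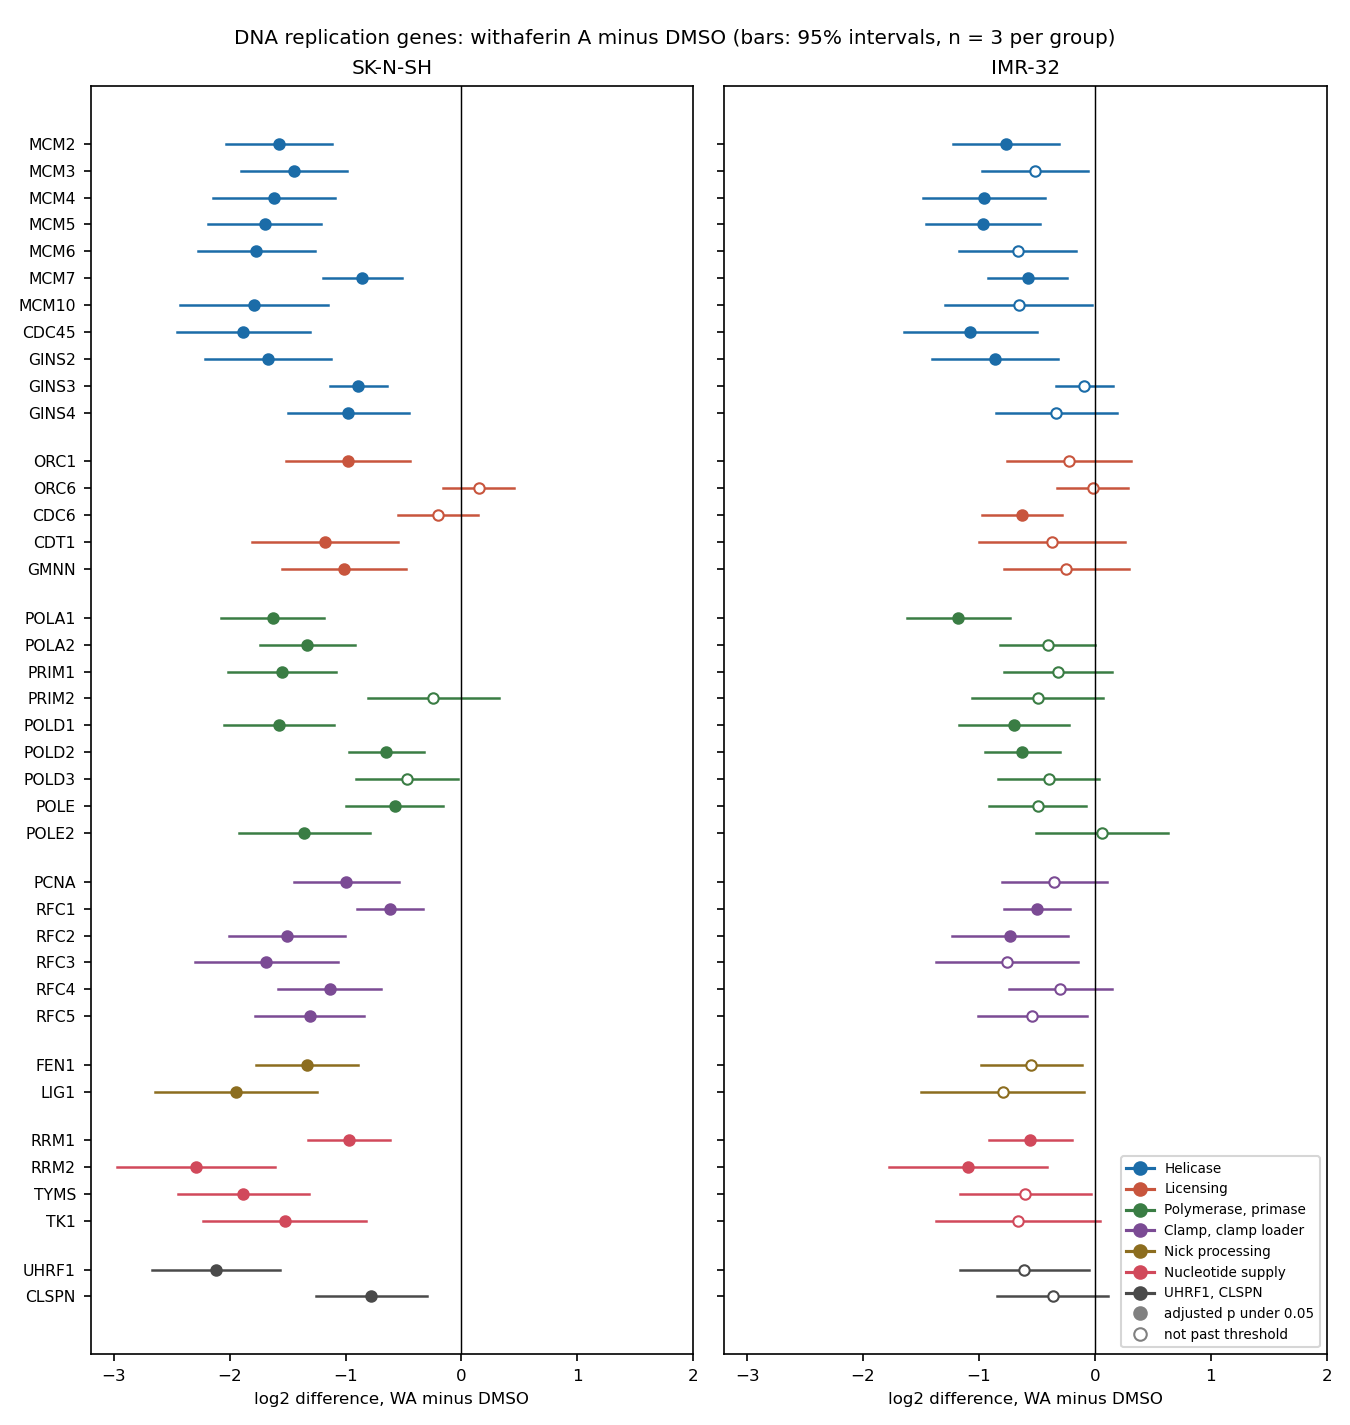
Log2 difference, WA minus DMSO, of the 39 tested replication genes by role in SK-N-SH (left) and IMR-32 (right), with 95% intervals of limma's fit (n = 3 per group). Filled points passed the adjusted threshold, 35 in SK-N-SH and 14 in IMR-32, and all of these lie left of 0.

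The helicase genes fell with WA in SK-N-SH and in part in IMR-32. All 11 tested members were called lower with WA in SK-N-SH (median -1.62) and 6 of 11 in IMR-32 (MCM2, MCM4, MCM5, MCM7, CDC45 and GINS2; median -0.67). CDC45, the factor that joins the loaded MCM ring to make the active helicase, was at 9.37, 8.53 and 7.79 on the SK-N-SH WA arrays, against 10.71, 10.46 and 10.17 under DMSO. In IMR-32 it was at 10.11, 9.97 and 10.33 with WA, against 11.14, 11.21 and 11.29 under DMSO. The WA and DMSO arrays did not overlap in either line, and CDC45 was 3.68-fold lower in SK-N-SH (-1.88 ± 0.27 SE, adjusted p = 0.000109) and 2.11-fold lower in IMR-32 (-1.07 ± 0.27, adjusted p = 0.0136).

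MCM5 and MCM4, both subunits of the MCM ring, fell in both lines. MCM5 was at 8.98, 7.96 and 8.25 with WA in SK-N-SH, against 10.05, 10.39 and 9.85 under DMSO, a fall of 3.24-fold (-1.70 ± 0.23, adjusted p = 6.69e-05). In IMR-32 MCM5 was at 9.13, 9.15 and 9.72 with WA, against 10.14, 10.43 and 10.32 under DMSO (-0.96 ± 0.23, adjusted p = 0.00989). No WA array reached the lowest DMSO array. MCM4 was at 9.58, 9.11 and 9.19 with WA in SK-N-SH, against 10.93, 11.55 and 10.25 under DMSO, and at 10.85, 11.08 and 10.89 with WA in IMR-32, against 11.72, 12.09 and 11.88 under DMSO. Its groups were apart in both lines, with differences of -1.62 ± 0.25 in SK-N-SH (adjusted p = 0.000175) and -0.96 ± 0.25 in IMR-32 (adjusted p = 0.0161).

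Of the other helicase members, MCM6, another ring subunit, gave -1.77 ± 0.24 in SK-N-SH (adjusted p = 6.21e-05) and -0.67 ± 0.24 in IMR-32 (adjusted p = 0.0718, and 0.0126 with the replicate number as a block). MCM10, which helps activate the helicase, gave -1.79 ± 0.30 in SK-N-SH (adjusted p = 0.000348) and -0.66 ± 0.30 in IMR-32 (adjusted p = 0.165, and 0.032 with the block). MCM7 had the smallest change among the helicase members in SK-N-SH (-0.86 ± 0.16, adjusted p = 0.000791), against -0.58 ± 0.16 in IMR-32 (adjusted p = 0.0225).

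GINS3, a further GINS subunit, differed in its response between the lines. It was at 8.21, 8.10 and 8.05 with WA in SK-N-SH, against 9.14, 8.97 and 8.90 under DMSO (-0.89 ± 0.12, adjusted p = 5.1e-05). In IMR-32 it was at 10.73, 10.79 and 10.73 with WA, against 10.88, 10.93 and 10.71 under DMSO, and those arrays overlapped (-0.09 ± 0.12, adjusted p = 0.685). GINS2, from the same complex, fell in both lines, by 1.67 in SK-N-SH (adjusted p = 0.000175) and 0.86 in IMR-32 (adjusted p = 0.032) on the log2 scale.

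Origin licensing had the lowest share of calls in SK-N-SH. WA lowered 3 of 5 members in SK-N-SH (CDT1, GMNN and ORC1; median -0.98) and 1 of 5 in IMR-32 (CDC6; median -0.25). CDT1, the MCM loading factor, was at 8.29, 6.96 and 6.58 with WA in SK-N-SH, against 8.44, 8.75 and 8.18 under DMSO. Replicate 1 of the WA arrays lay within the DMSO range, and the difference was -1.18 ± 0.30 (adjusted p = 0.00641). GMNN, the inhibitor of CDT1, was at 9.06, 8.14 and 7.62 with WA in SK-N-SH, against 9.49, 9.19 and 9.17 under DMSO (-1.01 ± 0.25, adjusted p = 0.00618). ORC1, the subunit of the origin recognition complex whose amount varies over the cell cycle, was at 6.23, 5.83 and 5.18 with WA in SK-N-SH, against 6.81, 7.08 and 6.30 under DMSO (-0.98 ± 0.25, adjusted p = 0.00731).

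In IMR-32 the same 3 genes did not pass. CDT1 was at 8.34, 8.48 and 8.63 with WA, against 8.83, 8.93 and 8.80 under DMSO, with no overlap (-0.37 ± 0.30, adjusted p = 0.474). GMNN was at 9.69, 9.51 and 10.09 with WA, against 10.10, 9.96 and 9.96 under DMSO, and ORC1 at 8.18, 7.96 and 8.44, against 8.24, 8.59 and 8.41. The arrays of GMNN (-0.25 ± 0.25, adjusted p = 0.601) and ORC1 (-0.22 ± 0.25, adjusted p = 0.64) overlapped.

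CDC6, the loader of the MCM ring with an E2F match just past its start, was the only one of the 39 genes called lower in IMR-32 and not in SK-N-SH. It was at 5.61, 5.44 and 5.59 with WA in IMR-32, against 6.19, 6.17 and 6.15 under DMSO (-0.63 ± 0.16, adjusted p = 0.0162). In SK-N-SH its arrays overlapped at low levels, 4.99, 5.22 and 4.51 with WA, against 5.08, 5.00 and 5.25 under DMSO (-0.21 ± 0.16, adjusted p = 0.368). The difference between the lines was 0.42 ± 0.23 (adjusted p = 0.293), so it did not pass the test. ORC6, a further subunit of the origin recognition complex, gave 0.15 ± 0.14 in SK-N-SH (adjusted p = 0.475) and -0.02 ± 0.14 in IMR-32 (adjusted p = 0.964). Its dimmer probe gave -0.82 in SK-N-SH (adjusted p = 0.0123 over probes) and 0.07 in IMR-32 (adjusted p = 0.909), so in SK-N-SH its 2 probes disagreed.

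Among polymerase and primase subunits, 7 of 9 fell with WA in SK-N-SH (median -1.33) and 3 of 9 in IMR-32 (POLA1, POLD1 and POLD2; median -0.49). POLA1, the catalytic subunit of polymerase alpha, was at 7.90, 6.88 and 7.36 with WA in SK-N-SH, against 9.14, 9.08 and 8.80 under DMSO. In IMR-32 it was at 8.95, 8.73 and 8.78 with WA, against 9.97, 9.95 and 10.08 under DMSO. WA and DMSO arrays did not overlap in either line. POLA1 was 3.10-fold lower in SK-N-SH (-1.63 ± 0.21, adjusted p = 4.31e-05) and 2.26-fold lower in IMR-32 (-1.18 ± 0.21, adjusted p = 0.00132), where no member had a larger fall.

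POLD1, the catalytic subunit of polymerase delta, was at 8.10, 6.93 and 7.07 with WA in SK-N-SH, against 8.97, 8.99 and 8.85 under DMSO (-1.57 ± 0.22, adjusted p = 0.000102). In IMR-32 it was at 8.56, 8.51 and 8.79 with WA, against 9.22, 9.43 and 9.31 under DMSO (-0.70 ± 0.22, adjusted p = 0.0459). Neither line had overlapping arrays. POLD2, the accessory subunit of the same enzyme, fell by nearly the same amount in both lines, 0.65 ± 0.15 in SK-N-SH (adjusted p = 0.0043) and 0.62 ± 0.15 in IMR-32 (adjusted p = 0.0116) on the log2 scale.

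PRIM1, the catalytic subunit of primase, was at 8.99, 8.30 and 7.88 with WA in SK-N-SH, against 10.26, 9.94 and 9.61 under DMSO (-1.55 ± 0.22, adjusted p = 9.41e-05). In IMR-32 PRIM1 was at 10.03, 9.93 and 10.13 with WA, against 10.49, 10.31 and 10.24 under DMSO, apart but by little (-0.32 ± 0.22, adjusted p = 0.388). POLE2, the second subunit of polymerase epsilon, was at 8.48, 7.43 and 7.06 with WA in SK-N-SH, against 9.32, 9.18 and 8.54 under DMSO (-1.36 ± 0.27, adjusted p = 0.00115). The IMR-32 arrays of POLE2 overlapped, at 9.40, 9.59 and 9.59 with WA, against 9.48, 9.55 and 9.36 under DMSO (0.06 ± 0.27, adjusted p = 0.927).

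POLA2, the second subunit of polymerase alpha, gave -1.33 ± 0.19 in SK-N-SH (adjusted p = 0.000114) and -0.41 ± 0.19 in IMR-32 (adjusted p = 0.181). POLE, the catalytic subunit of polymerase epsilon, gave -0.58 ± 0.20 in SK-N-SH (adjusted p = 0.0345) and -0.49 ± 0.20 in IMR-32 (adjusted p = 0.11, and 0.0395 with the block). POLD3, an accessory subunit of polymerase delta, gave -0.47 ± 0.21 in SK-N-SH (adjusted p = 0.0948, and 0.0489 with the block) and -0.40 ± 0.21 in IMR-32 (adjusted p = 0.227). PRIM2, the large primase subunit, was near background and gave -0.24 ± 0.27 in SK-N-SH (adjusted p = 0.529) and -0.49 ± 0.27 in IMR-32 (adjusted p = 0.25).

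The clamp and its loader fell throughout in SK-N-SH, with 6 of 6 called (median -1.22), and in 2 of 6 cases in IMR-32 (RFC1 and RFC2; median -0.52), or 4 of 6 with the replicate number as a block. PCNA, the clamp, gave -0.99 ± 0.21 in SK-N-SH (adjusted p = 0.00226) and -0.35 ± 0.21 in IMR-32 (adjusted p = 0.318). RFC3, a small subunit of the clamp loader, was at 8.21, 7.66 and 6.54 with WA in SK-N-SH, against 9.27, 9.30 and 8.89 under DMSO (-1.68 ± 0.29, adjusted p = 0.000423). In IMR-32 RFC3 was at 9.31, 9.17 and 9.67 with WA, against 10.05, 10.16 and 10.21 under DMSO, without overlap (-0.76 ± 0.29, adjusted p = 0.0938, and 0.0198 with the block). A further RFC3 probe gave -0.09 in SK-N-SH and 0.06 in IMR-32, unlike the other 2.

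RFC2, another small loader subunit, was at 8.17, 7.27 and 7.21 with WA in SK-N-SH, against 9.29, 8.97 and 8.89 under DMSO (-1.50 ± 0.24, adjusted p = 0.000207). In IMR-32 RFC2 was at 7.87, 7.80 and 8.41 with WA, against 8.58, 8.94 and 8.76 under DMSO (-0.73 ± 0.24, adjusted p = 0.0472). RFC5, also a small subunit, was at 9.28, 8.59 and 8.08 with WA in SK-N-SH, against 10.02, 10.06 and 9.80 under DMSO (-1.31 ± 0.22, adjusted p = 0.000367). Its IMR-32 arrays were at 10.14, 10.06 and 10.26 with WA, against 10.63, 10.69 and 10.77 under DMSO, and did not overlap (-0.54 ± 0.22, adjusted p = 0.119, and 0.0265 with the block). RFC1, the large subunit, fell by a like amount in both lines, 0.61 ± 0.13 in SK-N-SH (adjusted p = 0.00256) and 0.50 ± 0.13 in IMR-32 (adjusted p = 0.02) on the log2 scale.

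Both genes that finish lagging-strand fragments fell in SK-N-SH. In IMR-32 0 of 2 passed, against 2 of 2 with the replicate number as a block and 2 of 2 with that line fitted on its own. LIG1, the ligase that seals the nicks, was at 8.42, 6.61 and 6.80 with WA in SK-N-SH, against 9.41, 9.28 and 8.98 under DMSO (-1.95 ± 0.33, adjusted p = 0.000376). In IMR-32 LIG1 was at 8.69, 8.46 and 8.59 with WA, against 9.47, 9.56 and 9.10 under DMSO (-0.80 ± 0.33, adjusted p = 0.124, and 0.0402 with the block). FEN1, the nuclease that trims the flaps, was at 11.32, 10.57 and 10.14 with WA in SK-N-SH, against 12.09, 11.98 and 11.95 under DMSO (-1.33 ± 0.21, adjusted p = 0.000189). Its IMR-32 arrays were at 11.81, 11.66 and 11.89 with WA, against 12.28, 12.35 and 12.37 under DMSO (-0.55 ± 0.21, adjusted p = 0.0886, and 0.0337 with the block). WA and DMSO arrays were apart for both genes in both lines. The dimmer FEN1 probe passed in IMR-32 (-0.88, adjusted p = 0.0218 over probes).

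Nucleotide supply held the gene with the largest fall of all 39. WA lowered 4 of 4 members in SK-N-SH (median -1.70) and 2 of 4 in IMR-32 (RRM1 and RRM2; median -0.63). RRM2, the S phase subunit of ribonucleotide reductase, was at 7.52, 7.28 and 6.33 with WA in SK-N-SH, against 9.57, 9.86 and 8.56 under DMSO, 4.89-fold lower (-2.29 ± 0.32, adjusted p = 8.88e-05). In IMR-32 RRM2 was at 9.32, 9.27 and 9.55 with WA, against 10.16, 10.76 and 10.51 under DMSO, 2.13-fold lower (-1.09 ± 0.32, adjusted p = 0.0307). The arrays of both lines were apart by treatment. The RRM2 promoter stretch printed above held no E2F match. RRM1, the large subunit of the same enzyme, gave -0.97 ± 0.17 in SK-N-SH (adjusted p = 0.000423) and -0.56 ± 0.17 in IMR-32 (adjusted p = 0.0348).

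TYMS, which makes thymidylate, was at 11.35, 10.15 and 9.85 with WA in SK-N-SH, against 12.46, 12.42 and 12.11 under DMSO (-1.88 ± 0.27, adjusted p = 9.88e-05). In IMR-32 TYMS was at 11.95, 12.09 and 12.42 with WA, against 12.69, 12.82 and 12.74 under DMSO (-0.60 ± 0.27, adjusted p = 0.154). TK1, the kinase that salvages thymidine, was at 9.68, 9.09 and 7.66 with WA in SK-N-SH, against 10.27, 10.56 and 10.18 under DMSO (-1.53 ± 0.33, adjusted p = 0.0025). In IMR-32 TK1 was at 9.59, 9.68 and 10.08 with WA, against 10.39, 10.41 and 10.55 under DMSO (-0.66 ± 0.33, adjusted p = 0.211). No WA array of either gene overlapped the DMSO arrays of its line, and replicate 1 was the highest WA array of both in SK-N-SH.

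UHRF1 and CLSPN both fell in SK-N-SH. UHRF1, which brings the maintenance DNA methyltransferase to newly copied DNA, was at 10.56, 9.41 and 9.54 with WA in SK-N-SH, against 12.05, 12.30 and 11.51 under DMSO, 4.34-fold lower (-2.12 ± 0.26, adjusted p = 3.18e-05). In IMR-32 UHRF1 was at 12.01, 11.92 and 11.95 with WA, against 12.44, 12.76 and 12.50 under DMSO, with no overlap (-0.61 ± 0.26, adjusted p = 0.138). Its dimmer probe was lower in IMR-32 (-1.07, adjusted p = 0.0147 over probes). CLSPN, an adaptor of the replication checkpoint kinase, was at 4.36, 4.76 and 4.49 with WA in SK-N-SH, not above background on any array, against 5.59, 5.49 and 4.85 under DMSO. It was at least 1.28-fold lower there (adjusted p = 0.015). For this bound an undetected array counted at the lowest level of any probe detected on it, or at its own level if higher. In IMR-32 CLSPN was at 5.85, 5.55 and 5.84 with WA, against 5.90, 6.11 and 6.33 under DMSO (-0.36 ± 0.23, adjusted p = 0.326).

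**Figure D3:**
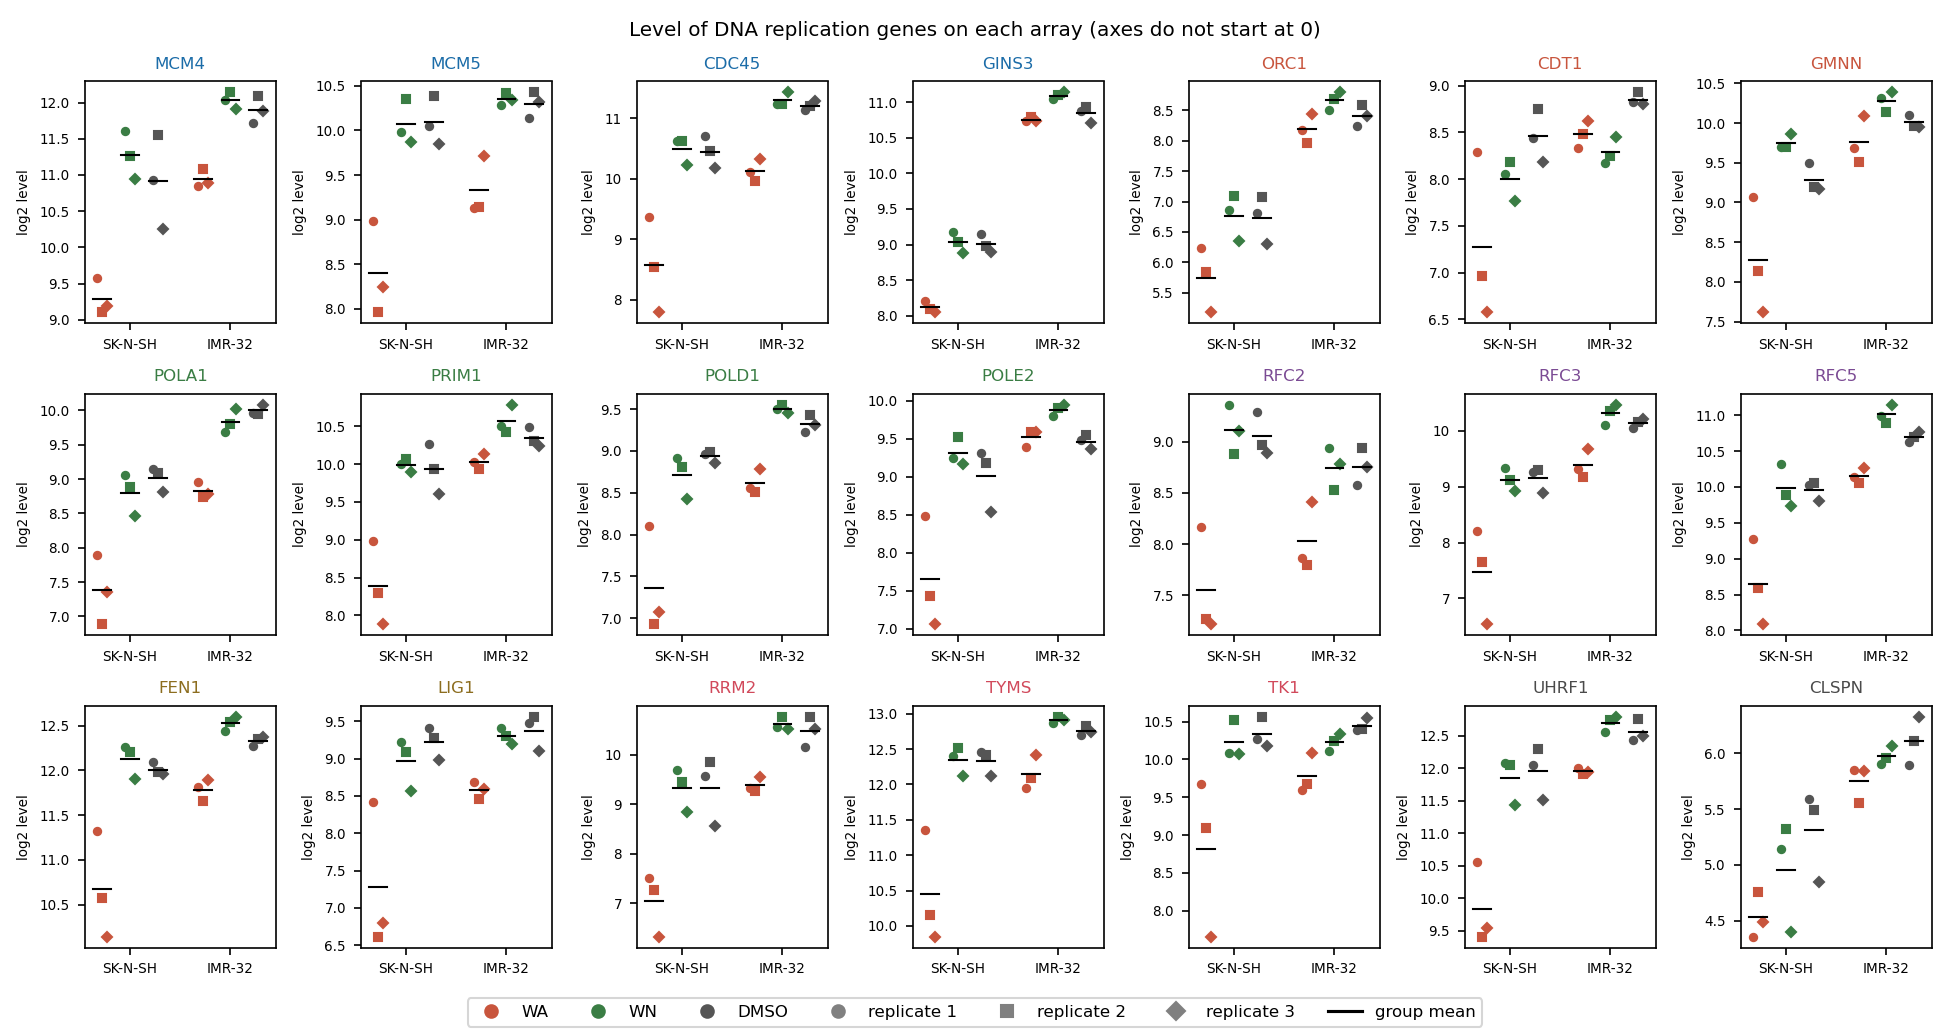
Log2 level of 21 replication genes on each of the 18 arrays, with WA, WN and DMSO from left to right within SK-N-SH and then IMR-32, symbols for the replicate number and lines for group means (titles coloured by role, axes not from 0). WA arrays sit below DMSO arrays for most genes in both lines, as for RRM2 at 7.52, 7.28 and 6.33 against 9.57, 9.86 and 8.56 in SK-N-SH, while POLE2 and GINS3 overlap in IMR-32.

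The fall with WA was compared between the lines through the difference of the WA effects, SK-N-SH minus IMR-32. The fall was larger in SK-N-SH for 36 of 39 genes, with a median difference of -0.79, and 4 genes passed the test, where 3.35% of all genes were called in that direction and 3.31% in the other. UHRF1 fell further in SK-N-SH by 1.51 ± 0.37 (adjusted p = 0.0221), POLE2 by 1.42 ± 0.38 (adjusted p = 0.0337), PRIM1 by 1.23 ± 0.31 (adjusted p = 0.0258) and GINS3 by 0.80 ± 0.16 (adjusted p = 0.00955), on the log2 scale. The next were TYMS (-1.28 ± 0.38, adjusted p = 0.0517), POLA2 (-0.92 ± 0.27, adjusted p = 0.0522) and MCM6 (-1.10 ± 0.34, adjusted p = 0.0595), whose adjusted p with the replicate number as a block were 0.0144 for TYMS, 0.0215 for POLA2 and 0.00781 for MCM6. At the other end, POLD2 gave -0.02 ± 0.22 (95% interval -0.48 to 0.44) and RFC1 gave -0.12 ± 0.19 (95% interval -0.52 to 0.29). Of the 39 genes, 13 were called lower in both lines, 22 in SK-N-SH and not IMR-32, 1 in IMR-32 and not SK-N-SH, and 3 (ORC6, PRIM2 and POLD3) in neither. The shares of all genes in these joint classes were not counted. Across the 39 genes the WA differences of the lines had Pearson r = 0.588 and Spearman rho = 0.656, as a description, since the genes share arrays.

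The number of genes past this test was 17 with the replicate number as a block, where 7.59% of all genes were called in that direction, and 24 with array weights, where 10.1% were. It was 25 without SK-N-SH WA replicate 1, where 9.62% of all genes were called in that direction, and 9 without SK-N-SH DMSO replicate 3, where 4.32% were. It was 1 without SK-N-SH WA replicate 2 or 3, SK-N-SH DMSO replicate 1 or 2, IMR-32 WA replicate 1 or IMR-32 DMSO replicate 3, and 2 without IMR-32 WA replicate 3 or IMR-32 DMSO replicate 1 or 2. For these counts of 1 and 2 the share of all genes is not given. GINS3 passed under all 21 alternatives, with adjusted p between 0.00139 and 0.0297.

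The size of the fall varied among SK-N-SH replicates. Set against the DMSO mean of each gene, the median of the 39 genes was -0.76, -1.49 and -1.75 on the SK-N-SH WA arrays, against 0.12, 0.06 and -0.20 on the DMSO arrays. In IMR-32 it was -0.57, -0.65 and -0.43 with WA, against -0.06, 0.07 and -0.0018 under DMSO. SK-N-SH DMSO replicate 3 was below the DMSO mean for 35 of 39 genes, and WN replicate 3 of that line had a median of -0.22. Against the DMSO array of the same number, the medians with WA were -0.87, -1.64 and -1.58 in SK-N-SH and -0.52, -0.69 and -0.43 in IMR-32. WA replicate 1 thus had the smallest fall in SK-N-SH by either measure. Without replicate number 3 in all 3 groups of SK-N-SH, a choice made after seeing these values, 34 of 39 genes were lower with WA, and the share of all genes is not given.

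The mitosis genes, a list of 35 that includes TOP2A, MKI67, FOXM1 and MYBL2, are given beside these values. In SK-N-SH 32 of 35 were called lower with WA (median -1.51), and in IMR-32 0 of 35 were called in either direction (median 0.16). Of all genes, 15.4% were called lower in SK-N-SH, and 6.47% lower and 8.04% higher in IMR-32. The mitosis medians on the WA arrays were -0.40, -1.40 and -2.54 in SK-N-SH and 0.08, 0.07 and 0.35 in IMR-32. In IMR-32 the WA arrays lay below all DMSO arrays for 5 mitosis genes and above all for 14, against 33 and 0 of the 39 replication genes. Of all genes, 19% lay below and 21.4% above in that line. With IMR-32 fitted on its own, 4 mitosis genes were called lower and 4 higher, where 9.92% of all genes were called lower and 11.3% higher. The difference of the WA effects between the lines passed for 7 mitosis genes, all lower in SK-N-SH (median of the list -1.63), and for 32 with the replicate number as a block. In that direction 3.35% of all genes were called, and 7.59% with the block.

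**Figure D4:**
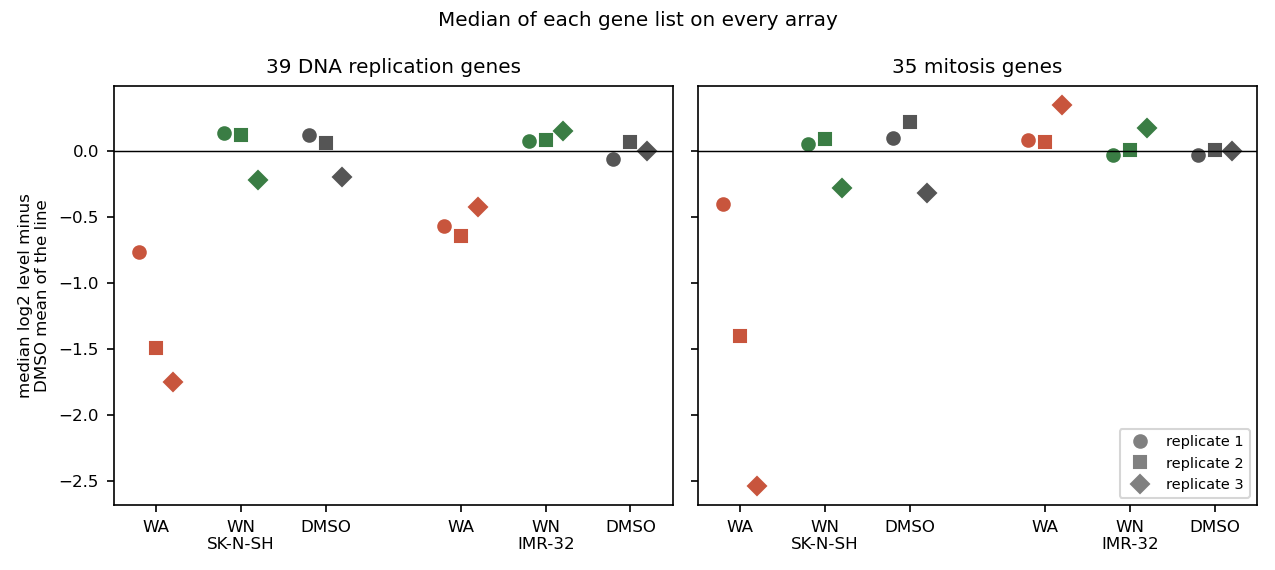
Median over 39 replication genes (left) and 35 mitosis genes (right) of the log2 level minus the gene's DMSO mean in its line, one point per array, with symbols for the replicate number. The IMR-32 WA arrays lie at -0.57, -0.65 and -0.43 for replication genes and at 0.08, 0.07 and 0.35 for mitosis genes, while the SK-N-SH WA arrays lie below 0 for both.

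WN, at the same dose and time, gave no replication gene past the threshold. In SK-N-SH 0 of 39 were called lower and 0 higher, where 0.909% and 0.925% of all genes were called (median 0.03). The SK-N-SH WN arrays lay below all DMSO arrays for 1 gene and above all for 4, where 12.2% and 9.6% of all genes did so. In IMR-32 0 of 39 were called in either direction, where 2.19% were called lower and 2.4% higher (median 0.09). The IMR-32 WN arrays lay below all DMSO arrays for 4 genes and above all for 11, where 14.5% and 17% of all genes did so. At an unadjusted p under 0.05, limma gave 1 lower and 2 higher in each line. The share of all genes at that unadjusted p was not counted, so these few are not read as a result. The 95% interval of the WN difference lay within a 2-fold change either way for 34 of 39 genes in SK-N-SH and 36 of 39 in IMR-32. These intervals use the spread shared by both lines. In SK-N-SH they are for most genes narrower than that line's own spread would give. WN and WA were set against the same DMSO arrays, so the 2 comparisons are not independent.

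**Figure D5:**
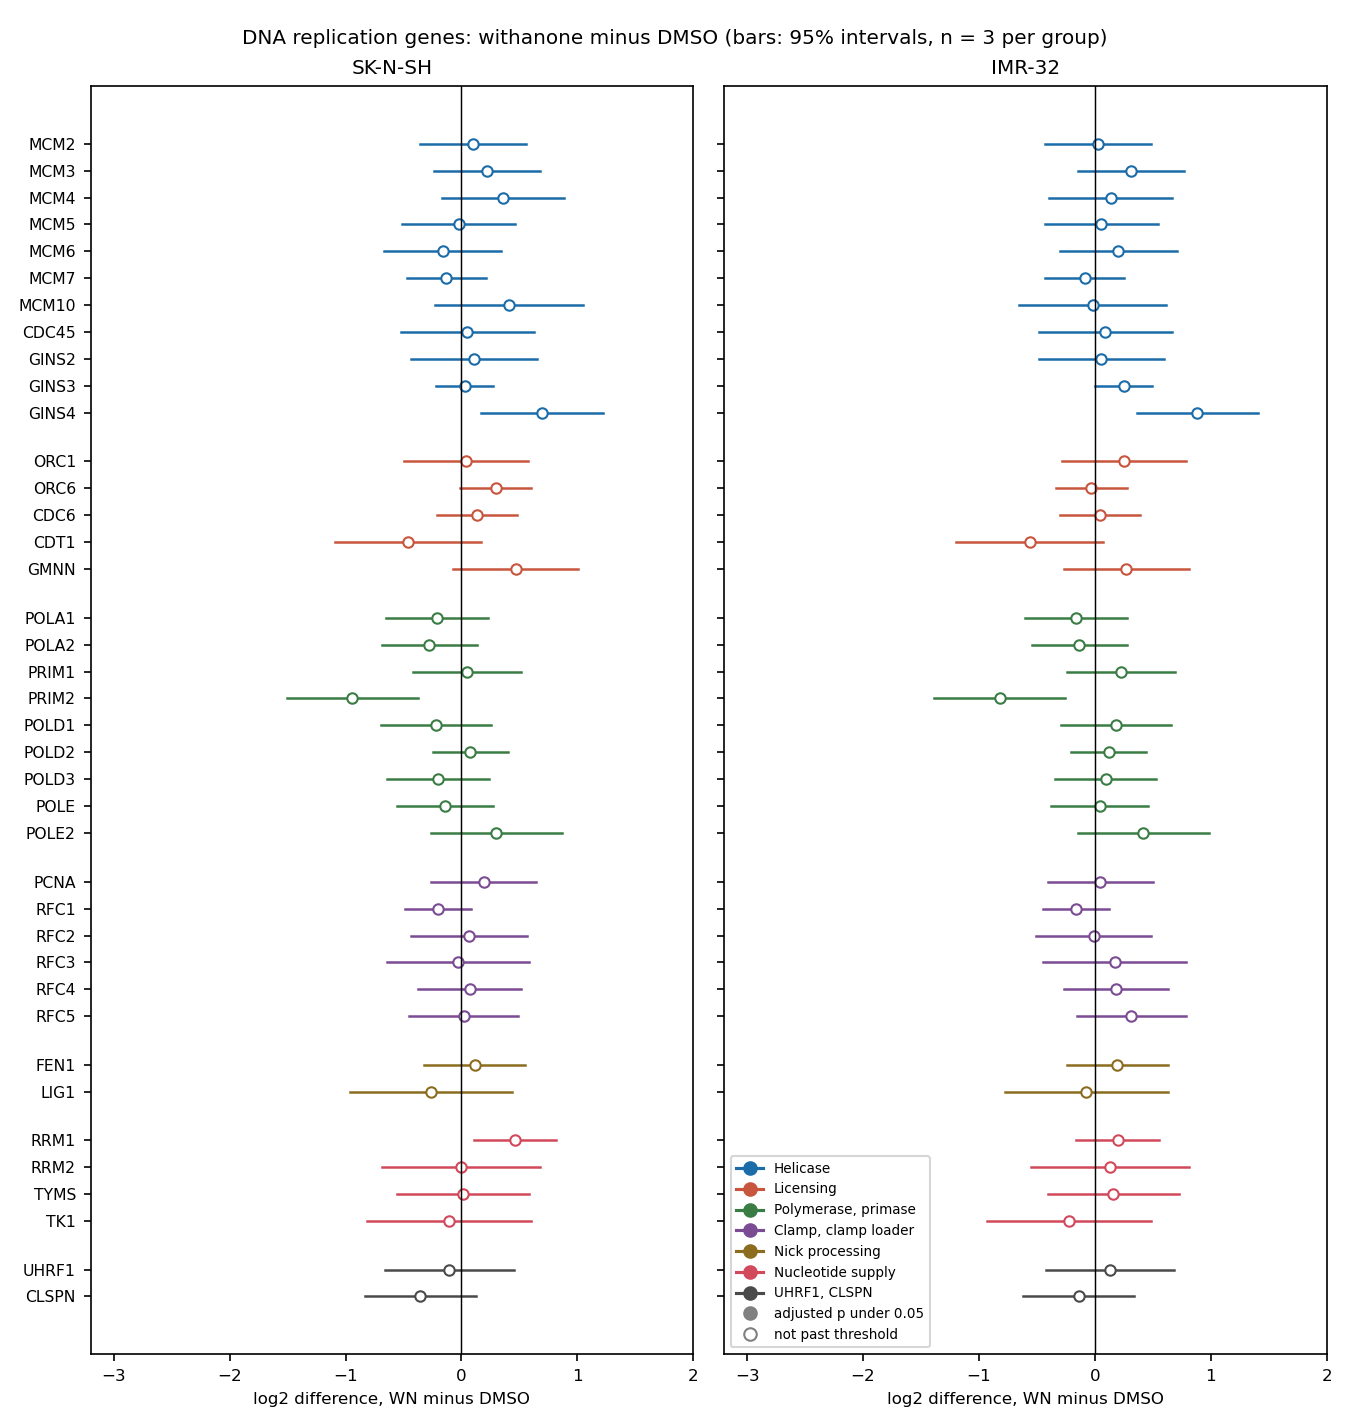
Log2 difference, WN minus DMSO, of the same 39 genes and on the same axis as the plot for WA, with 95% intervals (n = 3 per group). All points are open, and the medians are 0.03 in SK-N-SH and 0.09 in IMR-32.

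A few WN values lay near the threshold. GINS4, a GINS subunit, was at 6.37, 6.59 and 7.36 with WN in SK-N-SH, against 6.21, 5.81 and 6.21 under DMSO (0.70 ± 0.25, adjusted p = 0.16). In IMR-32 GINS4 was at 7.80, 7.76 and 7.31 with WN, against 6.73, 6.86 and 6.62 under DMSO (0.88 ± 0.25, adjusted p = 0.0515). The WN arrays were above all DMSO arrays in both lines, and GINS4 passed in IMR-32 under 8 of the alternatives run, one of them leaving out WN replicate 3 (adjusted p = 0.0468). With IMR-32 fitted on its own, 4 genes passed (CDT1 and PRIM2 lower, GINS4 and POLE2 higher), where 3.96% of all genes were called lower and 4.65% higher. With the replicate number as a block, 0 genes passed in IMR-32, where 3.86% were called lower and 3.72% higher. PRIM2 was at 4.91, 4.94 and 4.57 with WN in SK-N-SH, not above background on any array, against 5.53, 5.22 and 6.48 under DMSO (adjusted p = 0.0804), and passed there without DMSO replicate 2 (adjusted p = 0.0483) and with array weights (adjusted p = 0.0245). In IMR-32 PRIM2 was at 5.12, 5.16 and 5.39 with WN, against 6.03, 6.15 and 5.95 under DMSO (-0.82 ± 0.27, adjusted p = 0.0884). RRM1 was at 12.21, 11.85 and 11.63 with WN in SK-N-SH, against 11.60, 11.56 and 11.16 under DMSO (0.46 ± 0.17, adjusted p = 0.17), and passed there with the replicate number as a block (adjusted p = 0.0428). The difference of the WN effects between lines passed for 0 of 39 genes and for 0% of all genes.

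The 2 withanolides differed directly. WA was below WN for 32 of 39 genes in SK-N-SH and above it for 1 (median -1.43). Of all genes, 17.7% were called lower and 20.7% higher in that line. In IMR-32 WA was below WN for 22 of 39 genes and above it for 0 (median -0.72). Of all genes, 11.2% were called lower and 12.6% higher in IMR-32. Calls were shared by 21 genes in the 2 lines, and the share of all genes that did so was not counted. RRM2 was at 7.52, 7.28 and 6.33 with WA in SK-N-SH, against 9.69, 9.45 and 8.85 with WN (-2.29 ± 0.32, 95% interval -2.97 to -1.60, adjusted p = 6.11e-05). In IMR-32 RRM2 was at 9.32, 9.27 and 9.55 with WA, against 10.56, 10.76 and 10.51 with WN (-1.23 ± 0.32, adjusted p = 0.0112). WA and WN arrays of RRM2 did not overlap in either line.

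The single gene higher with WA than WN was PRIM2 in SK-N-SH, at 5.94, 5.50 and 5.06 with WA, against 4.91, 4.94 and 4.57 with WN, where it was not above background. WA was at least 1.45-fold higher there (adjusted p = 0.0487), and the call was lost under 13 of 17 alternatives, the replicate block among them (adjusted p = 0.0611). ORC6 was the gene whose compounds differed least in IMR-32 (0.01 ± 0.14, 95% interval -0.29 to 0.32). CDT1 gave -0.72 ± 0.30 in SK-N-SH (95% interval -1.35 to -0.09, adjusted p = 0.0657, and 0.0307 with the block) and 0.19 ± 0.30 in IMR-32 (95% interval -0.44 to 0.82). The IMR-32 count was 34 with that line fitted on its own and the replicate number as a block. It was 14 and 13 without WA replicate 1 or 2, and 14 without WN replicate 3. The share of all genes is not given for these IMR-32 counts.

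Under DMSO, SK-N-SH had lower levels than IMR-32 for 20 of 39 genes and higher levels for 0, where 24.5% of all genes were called lower and 27% higher (median -0.61). SK-N-SH arrays lay below all IMR-32 arrays for 30 of 39 genes, where 30.3% of all genes did so. GINS3 was at 9.14, 8.97 and 8.90 in SK-N-SH, against 10.88, 10.93 and 10.71 in IMR-32 (-1.83 ± 0.12, adjusted p = 1.04e-09). ORC1 was at 6.81, 7.08 and 6.30 in SK-N-SH, against 8.24, 8.59 and 8.41 in IMR-32 (-1.68 ± 0.25, adjusted p = 3.16e-05). POLD3 (-1.36 ± 0.21), RRM2 (-1.14 ± 0.32) and MCM2 (-1.11 ± 0.22) were also called lower in SK-N-SH. No SK-N-SH array reached the lowest IMR-32 array for any of these 5 genes. MCM7 (0.04 ± 0.16), POLD2 (0.07 ± 0.15) and RFC2 (0.29 ± 0.24) were among those that did not pass.

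Genes around the same fork were taken from a separate list. Of 32 tested, 16 fell and 1 (MCMBP, 0.45) rose with WA in SK-N-SH, and 8 fell and 3 (POLD4, ASF1A and ORC3) rose in IMR-32. Over all genes 15.4% fell and 16.4% rose in SK-N-SH, and 6.47% fell and 8.04% rose in IMR-32. With the replicate number as a block ORC3 did not pass in IMR-32 (adjusted p = 0.0523), and POLD4 passed in SK-N-SH (0.70, adjusted p = 0.00365). ASF1B, a histone chaperone, gave -1.77 ± 0.45 in SK-N-SH (adjusted p = 0.00656) but -0.45 ± 0.45 in IMR-32 (adjusted p = 0.586). CDC7, the kinase that fires origins, gave -1.75 ± 0.27 in SK-N-SH (adjusted p = 0.000159) and -0.35 ± 0.27 in IMR-32 (adjusted p = 0.434). WDHD1, which links polymerase alpha to the helicase, gave -1.53 ± 0.24 in SK-N-SH (adjusted p = 0.000208) and a fall of 1.00 ± 0.24 in IMR-32 (adjusted p = 0.0101). CHAF1B, a subunit of the chromatin assembly factor, gave -1.49 ± 0.19 in SK-N-SH (adjusted p = 4.98e-05) and -0.92 ± 0.19 in IMR-32 (adjusted p = 0.00473). Among 9 further nucleotide genes, DUT, which removes dUTP, fell by 2.04 in SK-N-SH (adjusted p = 0.000205) and 1.18 in IMR-32 (adjusted p = 0.021) on the log2 scale. RRM2B, the p53-induced counterpart of RRM2, moved the other way in SK-N-SH (0.92 ± 0.26, adjusted p = 0.0138).

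Upstream of these genes stand the E2F factors and the G1/S cyclins. Of 17 E2F and pocket protein genes, 4 fell and 2 rose with WA in SK-N-SH, and 2 fell and 1 rose in IMR-32, beside 15.4% lower and 16.4% higher of all genes in SK-N-SH, and 6.47% and 8.04% in IMR-32. E2F2, an activator, fell by 2.25 in SK-N-SH (adjusted p = 0.000221) and by 1.14 in IMR-32 (adjusted p = 0.0403) on the log2 scale. E2F8, a repressor, fell by 1.39 in IMR-32 (adjusted p = 0.00198), and in SK-N-SH, where it was not above background with WA, it was at least 1.21-fold lower (adjusted p = 0.0238). E2F6, a repressor, was 0.94 higher in SK-N-SH and 0.65 higher in IMR-32, both called. E2F1 gave 0.03 ± 0.28 in SK-N-SH (adjusted p = 0.952) and -0.78 ± 0.28 in IMR-32 (adjusted p = 0.0721, and 0.038 with the replicate number as a block).

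Of 13 G1/S cyclin and inhibitor genes, 6 fell and 2 rose in SK-N-SH, and 3 fell and 2 rose in IMR-32. The shares of all genes were 15.4% lower and 16.4% higher in SK-N-SH, and 6.47% lower and 8.04% higher in IMR-32. CDKN1A, the CDK inhibitor p21, was at 14.12, 14.49 and 14.32 with WA in SK-N-SH, against 12.51, 12.86 and 13.35 under DMSO (1.40 ± 0.22, adjusted p = 0.000204). In IMR-32 CDKN1A was at 12.22, 12.15 and 12.48 with WA, against 10.96, 11.40 and 11.26 under DMSO (1.07 ± 0.22, adjusted p = 0.0038), and its WA arrays were above all DMSO arrays in both lines. CCNE1, the G1/S cyclin, fell by 0.51 in SK-N-SH (adjusted p = 0.0306) and by 0.86 in IMR-32 (adjusted p = 0.00282) on the log2 scale. CCNA2, the S phase cyclin, gave -2.03 ± 0.39 in SK-N-SH (adjusted p = 0.000908) and -0.03 ± 0.39 in IMR-32 (adjusted p = 0.978).

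The presence of an E2F match was set against the fall with WA. Tested members with a match (n = 19) had a median of -1.36 in SK-N-SH and -0.58 in IMR-32, and members without one (n = 16) had -1.32 and -0.55. Members with and without the letters searched thus had close medians in both lines, as a description of these windows only.

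Genes with several kept probes numbered 15, and all their probes gave the same sign for WA minus DMSO in 14 in SK-N-SH and 12 in IMR-32. PCNA was one that disagreed in IMR-32, where its dimmest probe gave 0.26 and its middle probe -0.77 (adjusted p = 0.00677 over probes). RFC2's second probe gave -0.95 in SK-N-SH and -0.81 in IMR-32, both called. In IMR-32, PCNA, FEN1 and UHRF1 each had a dimmer probe that passed where the brightest did not.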

How the data were processed

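The deposited table holds, per the file headers, 1 signal intensity and 1 detection p-value per probe and array, not normalised by the authors. The series matrix holds log2 values deposited by the authors, used as an alternative. The submitters' processing notes name limma. Of 47224 probes, 2 had missing values and were left out. Signals were background-corrected and quantile-normalised with neqc (offset 16, limma 3.58.1, R 4.3.3). On the WN arrays the deposited p-value followed the signal for 66.53 to 68.06% of probes, against 99.99 to 100% on the others, so detection was rederived from the signals, a choice made after seeing the data. Probes with p below 0.01 on at least 3 of 18 arrays were kept (23320, of which 17745 had 1 gene symbol). The brightest probe stood for each of 12975 genes. One limma fit covered all 18 arrays, with Benjamini-Hochberg adjustment over all genes. Probe-level p-values were adjusted over all kept probes.

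The 40 genes, the comparison lists and the tests were chosen with earlier results of these data known. Values on every array are given for up to 3 genes per role with the largest mean absolute WA difference over both lines and for those whose WA effect differed between the lines. Of other lists, up to 4 genes with the largest called WA difference per line were named. Other array values (GINS4, PRIM2, RRM1, CDC6 and CDKN1A) and the values of E2F1 and RRM2B were chosen after they were seen. No per-sample column was left unused (0). Replicates are called biological in the labels, with no more said, and the number of arrays limits the precision. Same-numbered treated and DMSO arrays deviated together (r 0.214 to 0.663 over 6 pairs in SK-N-SH, 0.161 to 0.338 in IMR-32). Replicate numbers were therefore taken to pair the arrays, which the labels do not state. Pairs of unlike number reached 0.317 (SK-N-SH WN replicate 1 with DMSO replicate 2). The main fit does not use this pairing, and the replicate block does. The fit was also run on simulated data, but the settings and result of that run are not given, so nothing is concluded from it. Alternatives were the series matrix values, no background correction, the deposited p-values, other filters, the mean over probes, each line on its own, the replicate block, array weights and each array left out. Figures were drawn with Python 3.11.15 and matplotlib 3.10.9.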

Additional observations from a re-analysis of the deposited data

Results flagged for a closer look

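Of the replication genes, 4 had a WA effect that differed between the lines by limma's test of the difference itself, SK-N-SH minus IMR-32, all with the larger fall in SK-N-SH. The differences were -1.51 for UHRF1, -1.42 for POLE2, -1.23 for PRIM1 and -0.80 for GINS3 on the log2 scale. GINS3 passed under 21 of 21 alternatives, while UHRF1 and PRIM1 each lost the call in 8 and POLE2 in 10.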

How the results depend on the processing

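The median difference with WA was negative in both lines under every alternative run. Single-gene values were tallied for called genes and for the WA differences of the genes chosen for array values. Of these, 2460 kept their call or its absence under an alternative, 168 lost a call, 69 gained one and 0 reversed. Gains of other genes were not tallied and show in the counts that follow. Shares of all genes are given above for some of these settings, and not for most fits with an array left out. For WA in SK-N-SH, leaving out 1 array gave 33 to 36 genes called and other settings 32 to 36. For WA in IMR-32 (14), leaving out 1 array gave 3 to 11, each line fitted on its own 27, the same with the replicate block 29 and array weights 29. For WN in IMR-32 (0), 1 gene was called with the series matrix values, with no background correction, with the deposited p-values and with the stricter filter, 4 with the line on its own, 4 with the block added and 4 with array weights, and leaving out 1 array gave 0 to 1. For WN in SK-N-SH (0), array weights gave 1 and leaving out 1 array 0 to 1. For WA against WN, leaving out 1 array gave 31 to 35 in SK-N-SH and 13 to 19 in IMR-32, and IMR-32 on its own with the replicate block gave 34. For the difference of WA effects (4), array weights gave 24 and leaving out 1 array 1 to 25. For that of WN effects the count was 0 to 0, and for SK-N-SH against IMR-32 under DMSO 16 to 20. With an array left out, fewer arrays entered the fit, and counts fell in some cases and rose in others. The cause of these changes, and of those under the other settings, was not tested.

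The replicate number was also used as a block, since the numbers were taken to pair the arrays. The difference of WA effects then gave 17 genes in place of 4, where 7.59% of all genes were called in that direction. WN in SK-N-SH gave 1 in place of 0, where 2.09% of all genes were called lower and 1.73% higher. WA gave 36 in SK-N-SH and 21 in IMR-32, where 18.8% and 8.96% of all genes were called lower. WN in IMR-32 gave 0, where 3.86% were called lower and 3.72% higher. WA against WN gave 34 in SK-N-SH and 31 in IMR-32, where 20.4% and 14.2% of all genes were called lower. SK-N-SH against IMR-32 under DMSO gave 23, where 26.9% were called lower and 28.9% higher. Genes near background (CLSPN, PRIM2, CDC6 in SK-N-SH) have only bounds or low precision.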
